A study of Mus musculus with 160 samples.

Results

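Cldn10 and 8 further genes of cell-cell junctions were followed in single stromal cells sorted from mouse bone marrow. The set was named gene by gene: Cldn10, Tjp1, Gja1, Cdh2, Cdh11, Jam2, F11r, Lmo7 and Ctnnb1, 9 of the 22866 named genes of the table, and each had 1 row of its own. The members were chosen by name with measured values of these cells in view: Cldn10 was selected on its lower mean log2 level in old cells, and Lmo7 and Tjp1 on their ratios of mean FPKM between the ages. Every comparison of the ages below is therefore a description and was not tested. The old group held 78 cells of mice labelled 24 months of age (2 years in the protocol text) and the young group 82 cells of mice labelled 9 weeks (10 weeks in the protocol text). All mice were C57BL/6J with no treatment or engineered allele named. Cells of both ages were sorted as CD45-, Ter119-, CD31-, CD140a+ and LepR+, that is, without the surface marks of blood and endothelial cells and with the receptors encoded by Pdgfra and Lepr, and were then captured 1 per well on microfluidic chips. No label ties a cell to an animal, so each age counts as 1 sample, and cells were not used as replicates of an age.

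Neighbouring cells are held together and connected by several kinds of junction. In tight junctions, claudins and JAM proteins span the membrane and bind cytoplasmic scaffolds such as ZO-1. In adherens junctions, cadherins bind each other across the cell gap and hold actin through catenins, while connexins form the channels of gap junctions. Marrow stroma is no epithelium, but its reticular cells form a network in which connexin 43 channels and N-cadherin and cadherin-11 contacts are known, and claudin-10 is best known as a channel-forming claudin of kidney and gland epithelia.

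Cldn10 has 2 start sites in the RefSeq table of mouse promoters, both on the plus strand of chromosome 14 and 67079 bases apart (build GRCm38.p6). The expression values were made on another build, mm9, and give 1 value for the whole gene, so transcripts of the 2 starts cannot be told apart in them. The 250 bases before each start are shown because they differ in composition, with those of Gja1, the member found in most cells, for comparison. Capitals mark matches to the GC box GGGCGG, the TATA box TATAAA or the E-box CAGGTG on either strand.
Cldn10 upstream start (chr14:118787621-118787870, plus strand): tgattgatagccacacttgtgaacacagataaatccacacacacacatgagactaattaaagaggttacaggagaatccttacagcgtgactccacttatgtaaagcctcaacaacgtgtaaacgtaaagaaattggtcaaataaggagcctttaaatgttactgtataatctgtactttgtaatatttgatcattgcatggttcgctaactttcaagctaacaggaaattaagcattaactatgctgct
Cldn10 downstream start (chr14:118854700-118854949, plus strand): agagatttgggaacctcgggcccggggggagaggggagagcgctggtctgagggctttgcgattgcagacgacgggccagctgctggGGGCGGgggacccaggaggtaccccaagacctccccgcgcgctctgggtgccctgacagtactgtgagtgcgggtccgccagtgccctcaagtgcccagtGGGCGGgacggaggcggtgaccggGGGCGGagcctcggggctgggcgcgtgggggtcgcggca
Gja1 (chr10:56377050-56377299, plus strand): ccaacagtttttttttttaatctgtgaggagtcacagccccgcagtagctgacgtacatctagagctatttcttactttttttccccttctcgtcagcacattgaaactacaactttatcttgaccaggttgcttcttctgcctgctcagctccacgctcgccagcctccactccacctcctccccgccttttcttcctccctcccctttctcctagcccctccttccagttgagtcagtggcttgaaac
The upstream Cldn10 sequence had a GC content of 36% with 4 CpG dinucleotides and no match to the 3 motifs. The downstream one had a GC content of 72.4% with 22 CpG and 3 GC boxes, and the Gja1 sequence 50%, 6 CpG and no match. Over all 32851 promoters of the table the medians were 52.4% and 6 CpG, and 32.7% held a GC box, 12.4% the TATA box and 17.2% the E-box. These letters describe the windows and were not linked to the expression values. Sequences of 6 of the 9 members were matched in the table.

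Levels are in FPKM, a fragment count corrected for the length of the transcript and for the sequencing of the cell, and a gene is called listed in a cell at 1 FPKM or more. Read numbers were not given in the sources used here, so the depth per cell is unknown. A value of 0 does not show that a gene is absent: even Gapdh, a glycolysis gene of almost every cell, stood at 0 in 91 of 160 cells. All intervals of shares are 95% Clopper-Pearson (exact) intervals, which cover counting error only. Old cells listed a median of 1160 genes (193 to 2779) and young cells 1114.5 (129 to 2129). Xist was listed in 54 old and 0 young cells, whereas RNA of 1 or more of 4 Y-linked genes was in 0 old and 34 young cells, and the protocol counts the wells of each age apart. Age, sex-linked RNA and capture therefore cannot be told apart in any comparison of the ages. The niche stroma markers Cxcl12, Kitl, Adipoq, Ebf3, Foxc1 and Vcam1 were all found: at least 3 of them were listed in 68 old and 81 young cells, and 5 of the 6 had a lower share in old cells (all but Foxc1). Among all 3829 genes found in 10% of the cells of an age, 51.4% had a lower share in old cells. The summed level of the 6 niche markers ran from 0.535 to 18854 FPKM (median 1330) in old and from 21.4 to 43503 FPKM (median 1665) in young cells. By mean log2 Vcam1 differed by -2.55 and Kitl by -1.38, where 0.917% of 7196 genes with a mean of 1 FPKM in an age were at -1 or lower. Of the 6 fibroblast markers, 4 were listed in some cell, S100a4 and Dpt were listed in none, and at least 3 were listed in 8 old and 9 young cells. Their summed level ran from 0 to 50431 FPKM (median 39.8) in old and from 0 to 1925 FPKM (median 11.1) in young cells, and Dcn, the proteoglycan decorin, was in 66.7% of old and 41.5% of young cells, with a difference of mean log2 of 1.76. S100b was in 34.6% of old and 23.2% of young cells as 1 of 2 Schwann cell markers listed of 4, and Col1a1 in 17.9% of old and 11% of young cells, while all 5 osteoblast markers were listed in some cell. The part of these markers in the results was not tested. None of the 8 endothelial markers, the 8 epithelial markers (with Epcam, Cdh1, Krt8 and 3 claudins) or the 6 hematopoietic markers was listed in any cell. Of 4 erythroid markers 1 was listed in some cell, of 5 pericyte and smooth muscle markers 2, and of 3 chondrocyte markers 2. None of these was in 10% of the cells of an age, and Sox9 was the most frequent (7 old and 3 young cells). Of the 2 genes of the sort, Lepr was listed in 91% of old and 95.1% of young cells, but Pdgfra in only 38.5% of old and 34.1% of young cells.

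Cldn10, which encodes the tight junction protein claudin-10, was the member with the widest gap between the ages in share of cells and in mean log2 level. It was listed in 8 of 78 old cells (10.3%, interval 4.53 to 19.2), against 46 of 82 young cells (56.1%, interval 44.7 to 67), a gap of -45.8 percentage points. In old cells its values ran from 0 to 235 FPKM with a median of 0, against 0 to 510 FPKM with a median of 7.91 in young cells. The ranges overlapped, but 100 FPKM was reached by 1 old cell and by 15 young cells, and exactly 0 was given for 69 old and 28 young cells. Mean log2(FPKM + 1) was 0.48 (SD over cells 1.52) in old cells and 3.07 (SD 3.08) in young cells, a difference of -2.60. Of 7196 genes with a mean of 1 FPKM in an age, 0.917% had a difference of -1 or lower, and Cldn10 held the 4th lowest place. No single cell made this difference: the highest cell carried 57.4% of the summed Cldn10 FPKM of old cells and 11.9% of that of young cells, and without it the means were 2.26 FPKM in old and 46.6 FPKM in young cells. By the log2 ratio of mean FPKM with 1 added to each mean, Lmo7 (-8.30) and Tjp1 (3.79) lay farther from 0 than Cldn10 (-3.09), and for Lmo7 and Tjp1 a single cell held most of the FPKM of the age with the higher mean.

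Few cells had Cldn10 values close to 1 FPKM. The only old cell with a value between 0 and 1 had 0.157 FPKM, and the lowest listed old cell had 1.93. In young cells the 8 values between 0 and 1 had a median of 0.0418 and reached 0.286 FPKM, and the lowest listed cell had 1.35. Listed cells had a median of 18.3 FPKM (quartiles 12.8 and 47.2) among old and 34.5 FPKM (17 and 143) among young cells. Of the listed cells, 1 of 8 old and 15 of 46 young cells were at 100 FPKM or more.

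**Figure D1:**
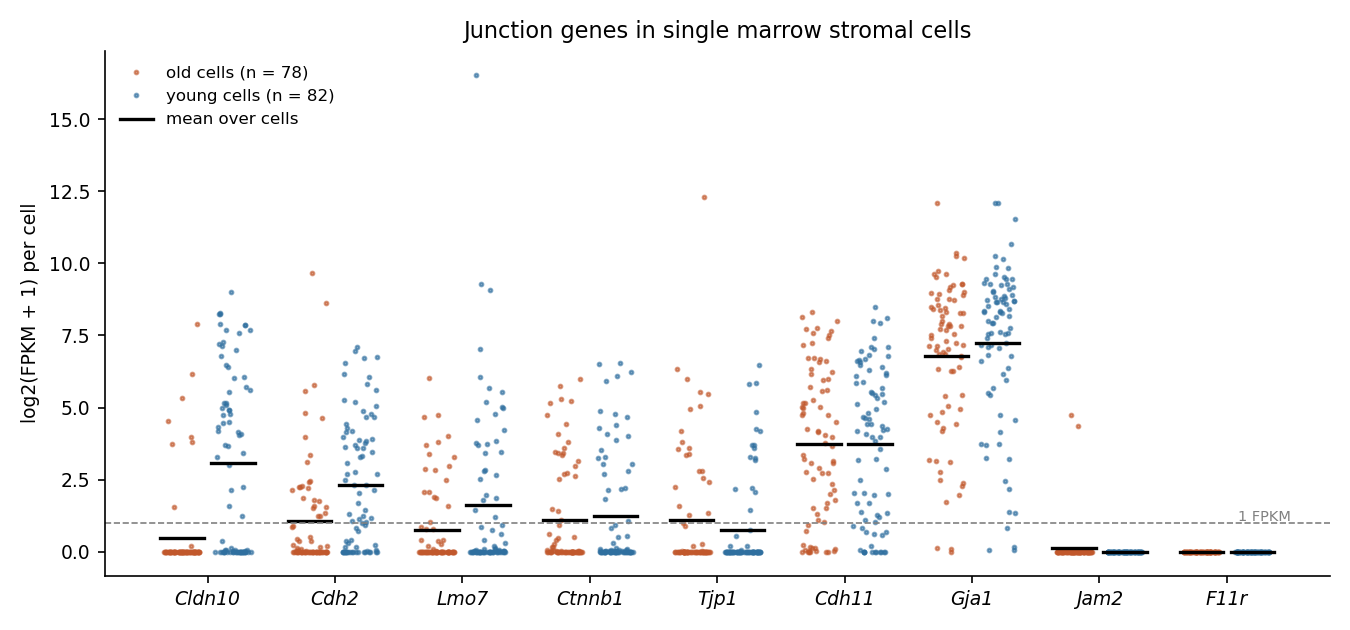
Each point is 1 cell and the vertical axis is log2(FPKM + 1), with old cells left of young cells for each gene, black bars at the mean over cells and a dashed line at 1 FPKM. Most old cells lie at 0 for Cldn10 while young cells reach 510 FPKM, Gja1 is high in nearly all cells, and single cells stand far above the rest for Lmo7 and Tjp1.

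The 8 old cells with Cldn10 were no uniform set. Their values were 1.93, 12.5, 13, 14.6, 22.1, 39.4, 70.5 and 235 FPKM. They listed between 984 and 1906 genes, all 8 listed Xist, and they listed 3 to 6 of the 9 members each. The 24 old cells without Xist had no Cldn10 at 1 FPKM, and these listed a median of only 482.5 genes, against 1312 in the 54 old cells with Xist. Among young cells Cldn10 was in 21 of 34 cells with Y-linked RNA (61.8%, interval 43.6 to 77.8) and in 25 of 48 cells without (52.1%, interval 37.2 to 66.7).

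Cells that list more genes also list Cldn10 more often, and the ages differed on either side of the median number of genes. With 1128.5 genes or more, Cldn10 was in 6 of 40 old cells (15%, interval 5.71 to 29.8) and 30 of 40 young cells (75%, interval 58.8 to 87.3). With fewer genes it was in 2 of 38 old cells (5.26%, interval 0.644 to 17.7) and 16 of 42 young cells (38.1%, interval 23.6 to 54.4). Median gene numbers were 1377 in old and 1373.5 in young cells of the upper set. In the lower set they were 529.5 in old and 668 in young cells, so gene number was not matched there. The intervals of the 2 ages did not overlap in either set. They cover counting error over cells only, and Cldn10 was chosen for its lower level in old cells, so this is no test.

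Cdh2, which encodes N-cadherin, was the other member below -1. It was listed in 25 of 78 old cells (32.1%, interval 21.9 to 43.6), against 50 of 82 young cells (61%, interval 49.6 to 71.6), a gap of -28.9 points. No other member had a gap of -20 points or lower, which 1.25% of the 3829 genes found in 10% of the cells of an age had. Its values ran from 0 to 801 FPKM with a median of 0.00756 in old cells, against 0 to 136 FPKM with a median of 2.70 in young cells. Mean log2(FPKM + 1) was 1.07 in old and 2.33 in young cells, a difference of -1.25. The plain means went the other way, with 18.3 FPKM in old and 15.6 FPKM in young cells. The highest old cell held 56% of the FPKM of its age, and without the highest cell of each age the means were 8.18 FPKM in old and 14.1 FPKM in young cells. Thus fewer old cells carried Cdh2, while the 2 highest values, 801 and 398 FPKM, were in old cells. The cell at 801 FPKM was also the old cell with the highest Tjp1 value, 5024 FPKM, and it listed 748 genes. By gene number, Cdh2 was in 21 of 40 old and 31 of 40 young cells above the median (52.5% of old, interval 36.1 to 68.5, and 77.5% of young, interval 61.5 to 89.2), with overlapping intervals. Below it, Cdh2 was in 4 of 38 old and 19 of 42 young cells (10.5% of old, interval 2.94 to 24.8, and 45.2% of young, interval 29.8 to 61.3), with intervals apart. Old cells below the median listed fewer genes than young ones (median 529.5 in old, 668 in young). Above it the medians were alike, at 1377 in old and 1373.5 in young cells.

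Cdh11, which encodes cadherin-11, the mesenchymal cadherin, had like values in both ages. It was listed in 61 old cells (78.2%, interval 67.4 to 86.8) and 63 young cells (76.8%, interval 66.2 to 85.4). The lowest, median and highest values were 0, 13.8 and 315 FPKM in old cells and 0, 17.4 and 360 FPKM in young cells. The groups overlapped throughout, and the difference of mean log2 was 0.01. Ctnnb1, which encodes beta-catenin, the cadherin-binding protein that also carries Wnt signals to the nucleus, was listed in 23 old cells (29.5%, interval 19.7 to 40.9) and 25 young cells (30.5%, interval 20.8 to 41.6). It ran from 0 to 62.3 FPKM in old and from 0 to 92.5 FPKM in young cells, with medians of 0.00698 FPKM in old and 0.00874 FPKM in young cells, and the difference of mean log2 was -0.13. Counting error alone spans these differences, which does not show that the ages are alike.

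Lmo7, which encodes a LIM-domain protein of adherens junctions that binds afadin and actinin, was listed in 18 old cells (23.1%, interval 14.3 to 34) and 28 young cells (34.1%, interval 24 to 45.4). In old cells the values ran from 0 to 64.1 FPKM with a median of 0, and in young cells from 0 to 95281 FPKM with a median of 0.0118. That single young cell held 98.2% of the Lmo7 FPKM of young cells, and the next highest had 624 FPKM. The means were 2.76 FPKM in old and 1183 FPKM in young cells, and 1.97 FPKM in old and 21.2 FPKM in young cells without the highest cell of each age. Mean log2 was 0.76 in old and 1.63 in young cells, a difference of -0.87, short of the fold of -1. Other scales put it past that fold, at -1.25 with a pseudocount of 0.1, -1.52 as a log2 ratio of means without the highest and lowest 5% of cells of each age, and -8.30 as a ratio of all means, and a pseudocount of 10 gave -0.50.

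Tjp1, which encodes the scaffold ZO-1 that links claudins to actin, was listed in 22 old cells (28.2%, interval 18.6 to 39.5) and 16 young cells (19.5%, interval 11.6 to 29.7). In old cells it ran from 0 to 5024 FPKM and in young cells from 0 to 87.8 FPKM, both with a median of 0. One old cell, also the highest for Cdh2, held 92.7% of the Tjp1 FPKM of its age. The means were 69.5 FPKM in old and 4.10 FPKM in young cells. Without the highest cell of each age they were 5.14 FPKM in old and 3.07 FPKM in young cells. Mean log2 was 1.12 in old and 0.75 in young cells, a difference of 0.36. Of the members at 1 FPKM on average, 2 of 7 thus had a difference of mean log2 of -1 or lower (Cldn10 and Cdh2) and 0 of 7 a difference of 1 or higher, which 0.695% of all genes had. Since the ages helped to choose the members, these counts carry no weight of their own.

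Gja1, which encodes connexin 43, the main gap junction protein of bone and marrow stroma, was the member with the highest median FPKM, a level per transcript length, and the highest mean log2 in both ages. It was listed in 75 old cells (96.2%, interval 89.2 to 99.2) and 78 young cells (95.1%, interval 88 to 98.7). The lowest, median and highest values were 0, 175 and 4367 FPKM in old cells and 0.0384, 285 and 4322 FPKM in young cells. At least 100 FPKM was reached in 52 old and 59 young cells, so both ages overlapped over nearly their whole range. Mean log2 was 6.80 (SD 2.63) in old and 7.25 (SD 2.77) in young cells, a difference of -0.45.

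RNA of the JAM genes was listed in few cells. Jam2, which encodes JAM-B, was listed in 2 old cells, at 19.6 and 25.7 FPKM (2.56%, interval 0.312 to 8.96). No young cell of 82 listed it, and this allows up to 3.66% by a limit of 3 cells, or 4.40% as the upper bound of the exact interval. F11r, which encodes JAM-A, was at exactly 0 in all 160 cells, which allows shares of listed cells of up to 3.85% in old and 3.66% in young cells. The exact upper bounds are 4.62% in old and 4.40% in young cells, and all these limits concern cells listed at 1 FPKM. Jam3, which encodes JAM-C and is no member, was in 3 old (3.85%, interval 0.80 to 10.8) and 5 young cells (6.10%, interval 2.01 to 13.7).

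**Figure D2:**
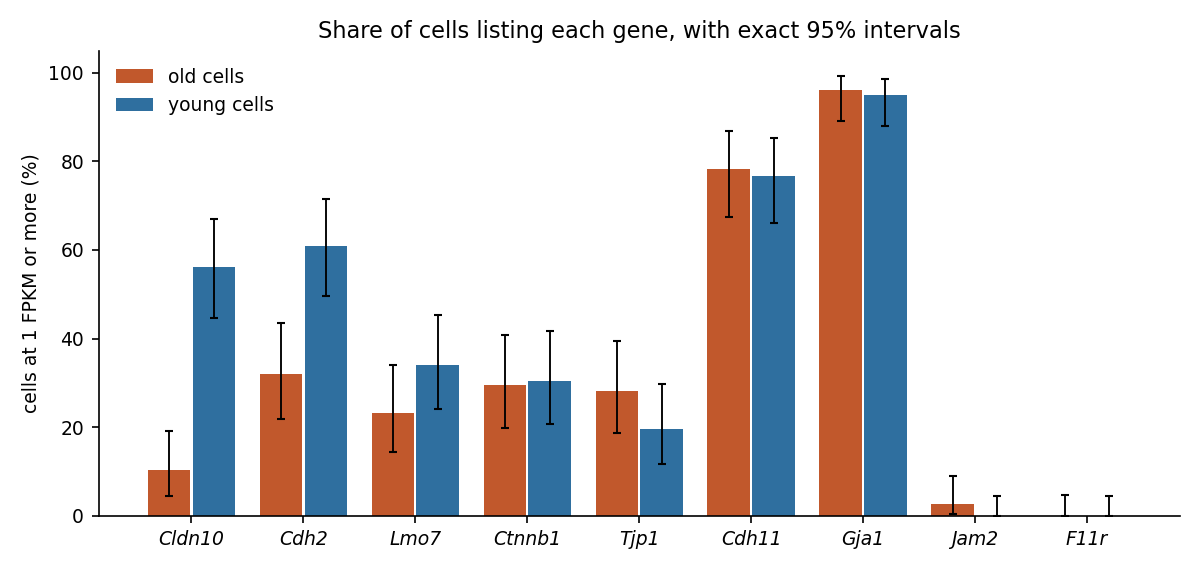
Bars give the percentage of cells at 1 FPKM or more and error bars the exact 95% interval, with old cells (78) left of young cells (82). The intervals of the ages are apart for Cldn10, which was chosen for its difference, and for Cdh2, and overlap for the other 7 genes. They cover counting error over cells only and are no test.

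The order of the members by mean log2(FPKM + 1) differed between the ages for 5 members, while Gja1 and Cdh11 led both. In old cells Gja1 (6.80) and Cdh11 (3.73) were followed by Tjp1 (1.12), Ctnnb1 (1.11), Cdh2 (1.07), Lmo7 (0.76), Cldn10 (0.48), Jam2 (0.12) and F11r (0). In young cells Gja1 (7.25) and Cdh11 (3.72) were followed by Cldn10 (3.07), Cdh2 (2.33), Lmo7 (1.63), Ctnnb1 (1.23), Tjp1 (0.75), and Jam2 and F11r at 0. Apart from Gja1 against Cdh11, neighbours in either order were closer than the larger of their SDs over cells. By share of cells, 4 of 9 members were lower in old cells (Cldn10, Cdh2, Lmo7 and Ctnnb1), 4 higher and 1 equal at 0. Of all 7196 genes with a mean of 1 FPKM in an age, 49.7% were lower in old cells, as were 4 of the 7 members with that mean, which Jam2 and F11r lack. A cell listed a median of 3 members in old (quartiles 2 and 4) and 4 in young cells (quartiles 3 and 5). At least 5 were listed in 11 old cells (14.1%) and 24 young cells (29.3%). These counts include Cldn10, which was chosen for its lower level in old cells, so their gap between the ages is partly set by that choice. The number of members followed the genes a cell listed, with a Spearman's rho of 0.72 over 78 old and 0.60 over 82 young cells, where both counts come from the same library.

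Co-listing asks whether the cells with Cldn10 are also those with the other junction genes. In young cells, the 46 with Cldn10 listed a median of 1291.5 genes and the 36 without it 906.5, so most genes are found more often beside Cldn10. Ctnnb1 was in 18 of 46 cells with Cldn10 (39.1%, interval 25.1 to 54.6) and 7 of 36 without (19.4%, interval 8.19 to 36), a difference of 19.7 percentage points. Cdh11 was in 39 of 46 cells with Cldn10 (84.8%) and 24 of 36 without (66.7%), a difference of 18.1 points. Lmo7 was in 19 of 46 with (41.3%) and 9 of 36 without (25%), and Cdh2 in 31 of 46 with (67.4%) and 19 of 36 without (52.8%). Gja1 was in 45 of 46 with (97.8%) and 33 of 36 without (91.7%). Tjp1, the scaffold that claudins bind, was in 8 of 46 with (17.4%) and 8 of 36 without (22.2%). The intervals of cells with and without Cldn10 overlapped for each of these 6 genes.

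A difference of 10 points or more was found for 4 of the 6 members listed in 10% of young cells (Ctnnb1, Cdh11, Lmo7 and Cdh2) and for 36.3% of 3058 genes. Over the 8 other members the median difference was 10.4 points, but Jam2 and F11r, in no young cell, are fixed at 0 in it. Over the 6 members it was 15.5 points, against 6.88 points over the 3058 genes. Within young cells split at their median gene number, the median over the 6 members was 13 points among cells with more genes, against 4.24 over all genes in 10% of these cells, and 0.250 points among cells with fewer genes, against 0.50. Ctnnb1 kept a positive difference in both (30.9 points among cells with more genes and 13.5 among cells with fewer), whereas Cdh2 gave 28.8 and -14.5 and Cdh11 gave -0.909 and 19. The set with more genes held only 11 cells without Cldn10, and the other set 16 with it. In old cells all 8 with Cldn10 listed Cdh11 and Gja1, 4 listed Tjp1, 3 Cdh2, 2 Lmo7 and 2 Ctnnb1. The median over the 6 members was 5.18 points in old cells, against 10.7 over all genes in 10% of them. With 8 cells no order can be read from these.

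**Figure D3:**
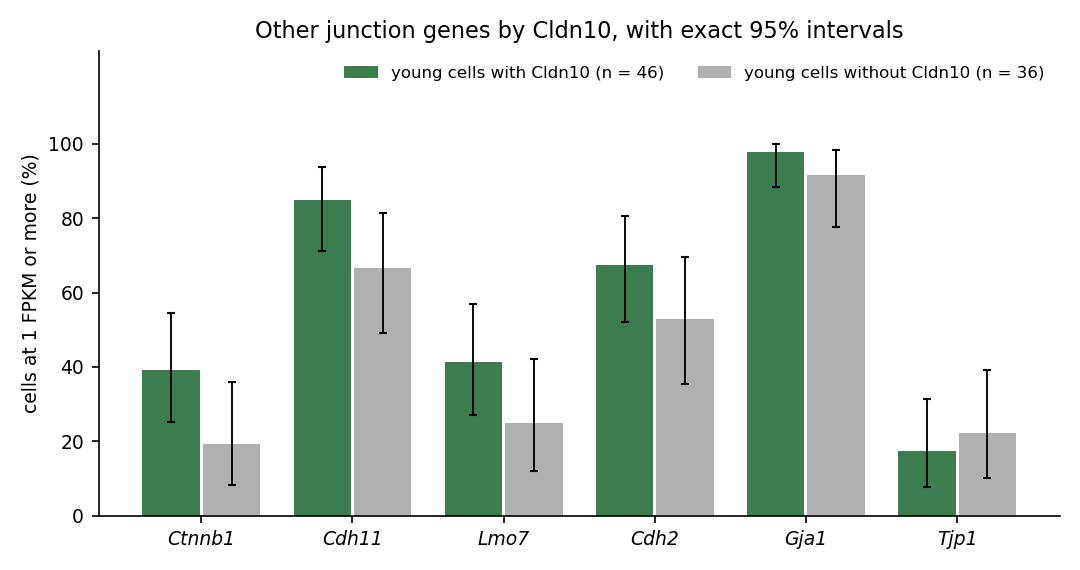
Bars give the percentage of young cells at 1 FPKM or more for 6 genes, in the 46 cells with Cldn10 (green) left of the 36 cells without (grey), and error bars are exact 95% intervals. The shares are higher beside Cldn10 for all genes but Tjp1, and each pair of intervals overlaps.

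Across pairs of the 7 genes listed in 10 or more cells, FPKM of the members went together about as loosely as those of any genes. The median Spearman's rho over the 21 pairs was 0.17 in old cells (from -0.04 to 0.33) and 0.19 in young cells (from -0.06 to 0.41). Over all pairs of genes listed in 25% of the cells of an age, the median was 0.18 in old cells (1028 genes) and 0.16 in young cells (1086 genes). All genes of a cell share its library, and with the number of genes per cell held constant the member medians were 0.04 in old and 0.05 in young cells. The highest pair was Lmo7 with Ctnnb1 in young cells, at 0.41, and 0.36 with gene number held constant. Of 28 young cells with Lmo7, 14 listed Ctnnb1 (50%), against 11 of 54 without (20.4%). In old cells the same pair had a rho of 0.19, and 0.01 with gene number held constant, with Ctnnb1 in 7 of 18 cells with Lmo7 (38.9%) and 16 of 60 without (26.7%). Tjp1 with Cdh2 followed in young cells at 0.39 (0.30 with gene number held constant), and had 0.21 (0.00) in old cells. Cdh2 with Gja1 was the only pair below 0 in both ages, at -0.04 in old and -0.06 in young cells. With gene number held constant this pair had -0.22 in old and -0.27 in young cells, the lowest of the 21 pairs in each age. Such values over sparse single-cell data are weak and describe these cells.

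**Figure D4:**
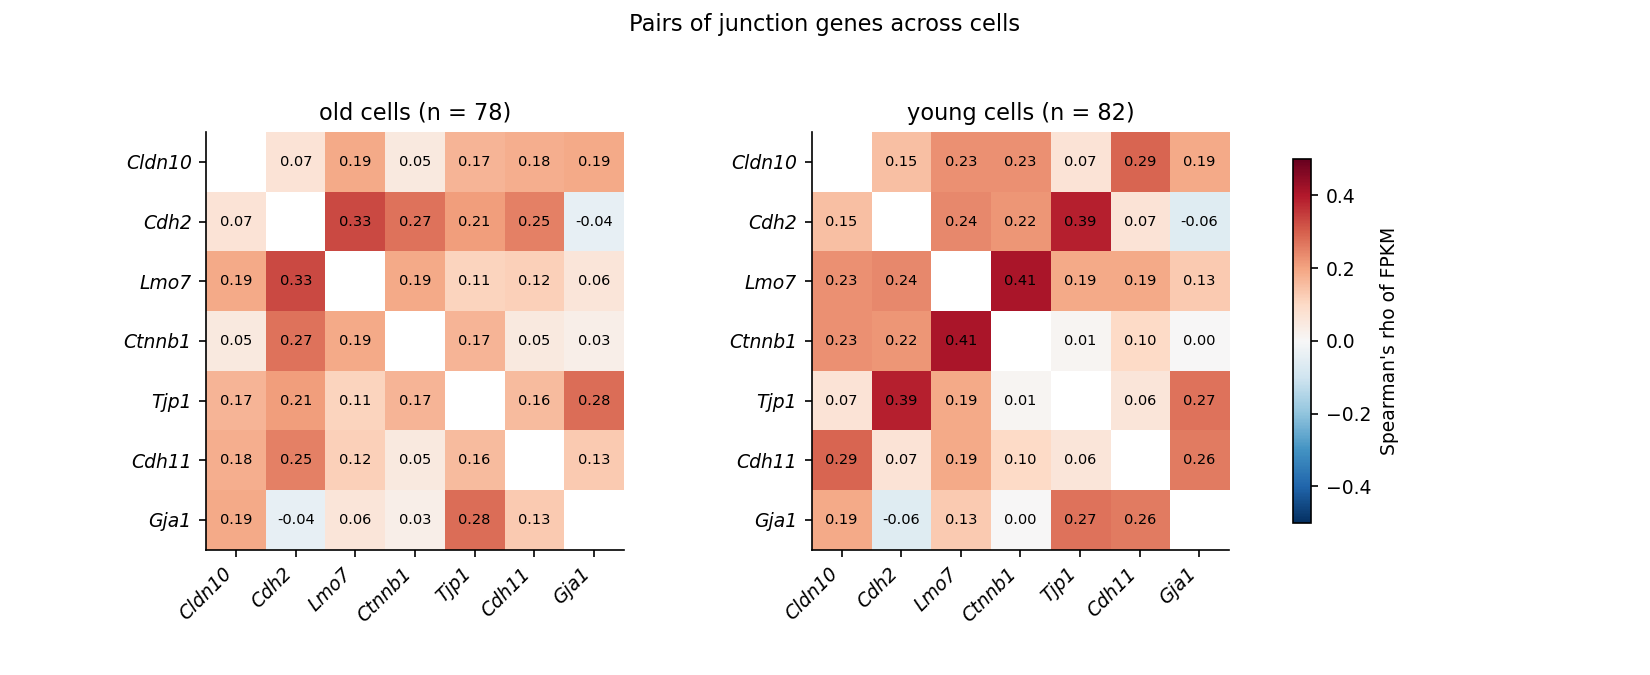
Each square is the Spearman's rho of FPKM between a pair of genes, across 78 old cells in the left panel and 82 young cells in the right panel, with red above and blue below 0. Values lie between -0.06 and 0.41, with Lmo7 and Ctnnb1 in young cells the highest.

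The genes most like Cldn10 in young cells, among 1085 genes listed in 25% of them, included 1 further adherens junction gene. The 8 highest Spearman's rho over 82 cells were those of Rab1 (0.46), a GTPase of transport to the Golgi, Cfl1 (0.45), which encodes the actin-severing cofilin, Tspyl1 (0.41), and Ctnna1 (0.39), which encodes alpha-catenin, the link from cadherin complexes to actin. Soat1 (0.38), a cholesterol-esterifying enzyme, Sepw1 (0.37), Rai14 (0.36) and Ndufa4 (0.36) completed them. The median over all 1085 genes was 0.14. Ctnna1 was listed in 18 of 46 young cells with Cldn10 (39.1%) and 4 of 36 without (11.1%), a gap that follows from its choice on these same cells. Gene number was not held constant in this ranking. Over the 78 old cells, which did not choose them, the same 8 genes had rho from -0.03 for Rab1 to 0.27 for Cfl1 and Soat1, with 0.20 for Ctnna1 and a median of 0.12 over all 1085 genes. Among the members Cdh11 held the 54th place of these 1085, Lmo7 the 183rd, Ctnnb1 the 189th, Gja1 the 324th and Cdh2 the 484th, while Tjp1, Jam2 and F11r were listed in too few young cells to be placed. Of the further junction genes in the lists, 7 were placed, with Ctnna1 at the 4th, Sorbs2 at the 53rd, Clmp at the 204th, Mpdz at the 646th, Actn1 at the 760th, Ctnnd1 at the 845th and Actn4 at the 860th place.

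For the other members the nearest genes were taken by the mean of the old and the young rho. The values thus come from the same cells that chose the genes, and gene number was not held constant. Gja1 lay closest to Fstl1, a secreted follistatin-like protein, with 0.55 over old and 0.69 over young cells, followed by Cbx3 (old 0.52, young 0.51) and B2m (old 0.44, young 0.54). Cdh2 lay closest to Gas6, a ligand of TAM receptors (old 0.64, young 0.27), then Fndc3b (old 0.52, young 0.37) and Fut8 (old 0.51, young 0.31). For Ctnnb1 these were Tnfrsf19 (old 0.40, young 0.44), Fndc3b (old 0.42, young 0.24) and Irf2bp2 (old 0.33, young 0.33), for Cdh11 Hnrnpu (old 0.31, young 0.48), Eif4g2 (old 0.40, young 0.33) and Snx22 (old 0.25, young 0.47), and for Lmo7 Slfn5 (old 0.32, young 0.50), Nucb1 (old 0.46, young 0.31) and Cfl1 (old 0.33, young 0.39). For Tjp1 they were the joint row of Rpl13a with Mir5121 and Snord33 (old 0.41, young 0.35), Fat1, a large atypical cadherin (old 0.36, young 0.39), and a row whose name had been turned into a date. The median over all 841 or 842 genes compared lay between 0.12 for Ctnnb1 and 0.19 for Gja1.

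The wider junction machinery was sparse in these cells, and its more common genes stayed within the fold, as did most genes. Of 162 further junction genes in 7 lists, 154 symbols were in the table, 64 were listed in at least 1 cell, and 18 were in 10% of the cells of an age. Of these 18, 11 had a lower and 7 a higher share in old cells, beside 51.4% lower among all 3829 genes that common. None of the 18 had a difference of mean log2 of -1 or lower or of 1 or higher. Of 7196 genes with a mean of 1 FPKM in an age, 116 (1.61%) had one. Of the 3829 genes in 10% of the cells of an age, 3.03% had one, so none of 18 lies close to the share of all genes. Cldn10 was chosen for its lower level in old cells.

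Among tight junction membrane proteins only Clmp and Cldn1 passed 10% of cells. Clmp, an adhesion protein related to the coxsackievirus receptor, was in 53.8% of old (interval 42.2 to 65.2) and 58.5% of young cells (47.1 to 69.3), and Cldn1 in 16.7% of old (9.18 to 26.8) and 13.4% of young cells (6.89 to 22.7). Apart from Cldn10, 22 claudins had rows and 5 were listed in any cell, so Cldn10 was the most widely listed claudin of young cells but not of old cells, where Cldn1 was in 13 cells and Cldn10 in 8. Among scaffolds, Mpdz, a multi-PDZ protein that binds claudins, was in 35.9% of old (25.3 to 47.6) and 53.7% of young cells (42.3 to 64.7), with a difference of mean log2 of -0.71. Magi2, another multi-PDZ scaffold, was in 19.2% of old and 12.2% of young cells, and Magi3 in 10.3% of old and 2.44% of young cells. Pard3, a polarity protein, was in 8.97% of old and 14.6% of young cells. The angiomotin-like genes Amotl1 and Amotl2 were in 16.7% and 6.41% of old cells and in 13.4% and 13.4% of young cells.

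Catenins and adaptors of adherens junctions gave 10 of the 18 genes, 7 with a lower share in old cells, beside 51.4% of all 3829 genes that common. The intervals of the ages overlapped for each of them. Ctnna1 was in 24.4% of old and 26.8% of young cells, and Ctnnd1, which encodes p120-catenin, in 21.8% of old and 25.6% of young cells. Vcl, which encodes vinculin, was in 21.8% of old and 22% of young cells, Jup (plakoglobin) in 10.3% of old and 9.76% of young cells, and Mllt4 (afadin, the nectin adaptor) in 12.8% of old and 13.4% of young cells. The actin-binding actinins Actn1 and Actn4 were in 26.9% and 30.8% of old and 29.3% and 39% of young cells. Sorbs2, an adaptor of actin structures, had the widest gap toward old cells, at 47.4% of old (interval 36 to 59.1) and 35.4% of young cells (25.1 to 46.7), with a difference of mean log2 of 0.61. Lima1, an actin-binding LIM protein, was in 24.4% of old and 18.3% of young cells, and Pdlim1 in 5.13% of old and 11% of young cells. Of the 21 other cadherins 2 were listed in any cell, of the 22 other connexins and pannexins 6, of the 16 desmosome genes 0, and of the 9 nectin and related genes 5, none in 10% of the cells of an age.

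**Figure D5:**
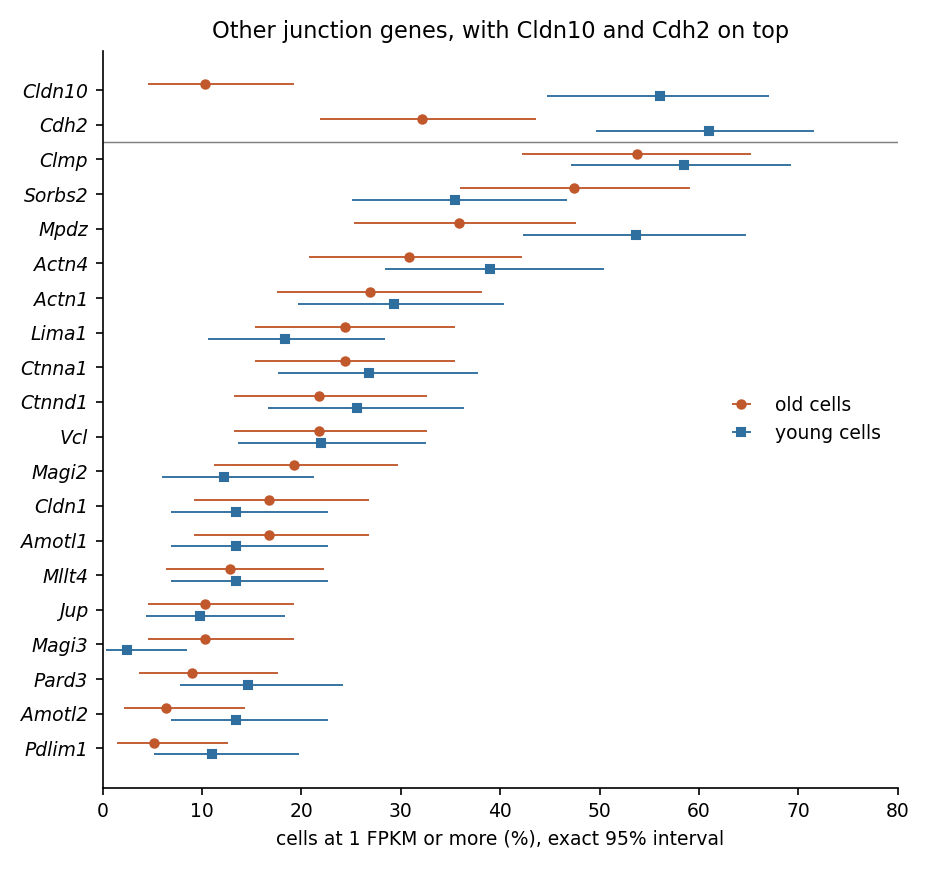
Points give the percentage of cells at 1 FPKM or more with exact 95% intervals, old cells (circles) above young cells (squares), for the 18 further junction genes found in 10% of the cells of an age, with Cldn10 and Cdh2 above the line. The intervals of the ages overlap for all 18 genes and are apart for Cldn10, which was chosen for its difference, and for Cdh2. They cover counting error over cells only and are no test.

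Cldn10 was also set against 11 genes that mark other differences among these cells, as a share of cells with and without each gene. It was more frequent in cells with the gene for 8 of the 11 genes in old and for 8 in young cells, where the cells with the gene had the higher median gene number for 11 genes in old and 10 in young cells. The like share over all genes was not counted. Genes in 10% of the cells were found more often beside Cldn10 by a median of 10.7 points in old and 6.88 points in young cells, so these counts single out no gene. For Spp1 it was in 5 of 25 old cells with the gene (20%, interval 6.83 to 40.7) and 3 of 53 without (5.66%, interval 1.18 to 15.7), and in 38 of 68 young cells with it (55.9%) and 8 of 14 without (57.1%). For the joint Serpina3n row it was in 3 of 4 old cells with the gene (75%, interval 19.4 to 99.4) and 5 of 74 without (6.76%, interval 2.23 to 15.1), and in 26 of 52 young cells with it (50%, interval 35.8 to 64.2) and 20 of 30 without (66.7%, interval 47.2 to 82.7). For Hspa5 it was in 7 of 60 old cells with the gene (11.7%, interval 4.82 to 22.6) and 1 of 18 without (5.56%, interval 0.141 to 27.3), and in 32 of 47 young cells with it (68.1%, interval 52.9 to 80.9) and 14 of 35 without (40%, interval 23.9 to 57.9). Spp1, Serpina3n, Hspa5, Aldh1a2 and Phex were picked after their values were seen. Aldh1a2 and Phex also had wide gaps in young cells, but their intervals with and without the gene overlapped. The young cells with either gene had the higher median gene number. Cldn10 was in 80% of 15 young cells with Aldh1a2 and 50.7% of 67 without, and in 78.6% of 14 with Phex and 51.5% of 68 without. In old cells it was in 14.6% of cells with Aldh1a2 and 3.33% without, but in 7.14% with Phex and 13.9% without. Of the remaining genes, Cldn10 was more frequent beside Vcam1, Adipoq, C3 and Igf1 in both ages. Every old cell with Cldn10 listed Vcam1 and Adipoq. Cldn10 was less frequent beside Pdgfra in both ages, and beside Cdkn1a in old but not in young cells. The intervals with and without the gene overlapped for each of these remaining genes.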

How the data were processed

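RNA was measured in 78 old and 82 young single cells, captured with the Fluidigm C1 system and amplified with SMARTer chemistry per the labels' protocols, which count 79 old and 83 young valid wells of 96 each after wells with no, several or shrunken cells were set aside by eye. No doublet caller was run. The authors deposited 1 table of FPKM per gene and cell, made with Cufflinks 2.1.1 on mm9 per the submitters' processing notes. For the aligner, the filters and shared fragments, details were not given in the sources used here. Of 31199 rows, 7751 without a gene name were left out, and rows sharing a name were summed to 22866 genes. No 2 columns were identical.

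The members, gene lists and measures were chosen with earlier results of these data known. All 9 members are described. From 7 junction lists the text names genes listed in 10% of the cells of an age, and likeness was ranked by Spearman's rho, with the top 8 for Cldn10 and the top 3 for each other member. Cells were grouped by the age in their titles. With 1 sample per age no test was made. The fold is a difference of mean log2(FPKM + 1), old minus young, of 1 in size, which understates changes of low genes. The 10-point limit of co-listing and the leaving out of 22 cells with a summed FPKM over 3 times the median were set after the data were seen. Alternatives changed the listing level, scaling, pseudocount, filter and cells kept. The difference of mean log2 and the co-listing difference were tested on simulated data with large known effects, and the other steps were not. Python 3.11.15, pandas 2.3.3, numpy 2.4.6 and scipy 1.17.1 were used.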

Additional observations from a re-analysis of the deposited data

How the results depend on the processing

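Listing at any value above 0, 5 or 10 FPKM, cells rescaled to equal sums, cells of few genes left out, cells between the quartiles of gene number, and cells of high summed FPKM left out each kept the Cldn10 share lower in old than in young cells, with differences from -54.3 to -38.6 percentage points (-45.8 as reported). The number of members with a lower share in old cells was 4 and ran from 3 to 6, with Cldn10, Cdh2 and Lmo7 lower in each setting. The like share over all genes was not counted per setting, and Cldn10 and Lmo7 were chosen on their differences between the ages. The median difference between young cells with and without Cldn10 over the other members was 10.4 points. It was 13.4 at any value above 0, 13 at 5 FPKM, 12.4 at 10 FPKM, 9.49 after rescaling, 8.22 without cells of few genes, 5.30 between the quartiles and 12.9 without cells of high summed FPKM, where all genes had 11.5, 8.93, 7.10, 8.23, 4.79, 0.974 and 7.18. As a Spearman's rho, over the 6 members above 0 FPKM in a young cell, it was 0.21. Over the 6 members listed in 10% of young cells, an alternative added after the data were seen, it was 15.5. The number of genes past the fold was 116, but 383 with a pseudocount of 0.1 and 15 with 10, since the pseudocount sets the scale. The Cdh2 difference of -1.25 turned to 0.22 as a log2 ratio of means, where 1 old cell held 56% of the FPKM of its age, and was -0.47 with a pseudocount of 10. Of 126 member shares recomputed, 96 stayed inside the reported interval. Shares of F11r in both ages and of Jam2 in young cells are among them. No such cell had a value above 0, so these shares could not leave their intervals. No paired analysis was possible because cell numbers are only names and no test was made.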
